A study of Danio rerio with 40 samples.

Results

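Adult zebrafish brains of wh5, a line with cyp1b1 knocked out, were compared with wild-type (WT) brains across every gene of the authors' brain comparison, 19300 genes in all. The series holds 40 samples from 2 organs, and the 20 brain samples are 10 wh5 and 10 WT, with 5 females and 5 males of each genotype by their titles. Directions are wh5 over WT, as the table's name reads, and both sexes are pooled. The labels name no batch, no treatment and no age beyond adult. They do not say whether each brain is 1 fish, so the p-values set the genotype difference against the spread between these samples. Title and source field disagree on the organ in all 40 samples, and the titles were followed. The authors deposited 1 table of results per organ with no value of a single sample. The values of each sample, the depth of each library and any difference between the sexes were therefore not analysed here. Folds are therefore given as wh5 over WT with the 95% interval from the authors' standard error (SE). Where a gene fell or is listed among the falls, its brain fold and interval are the inverse, WT over wh5. Adjusted p-values are Benjamini-Hochberg values over all 19300 genes, recomputed from the p-values of the authors' DESeq2 fit. A gene is called, or said to have risen or fallen, where that adjusted p is below 0.05. Members of a gene list were chosen by name and are not replicates of each other.

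The table carries the marks of brain tissue. In the authors' deposited tables the neuronal RNA-binding gene elavl4 had a base mean (the average normalised count in 1 comparison) of 14748 in brain and 1685 in eye. The radial glial aromatase gene cyp19a1b had 27085 and 471, also from the authors' deposited tables, which were normalised separately. Most pituitary hormone markers were close to the lower end, with gh1 at a base mean of 4.85 and prl at 13.1 in the authors' deposited table. The marker pomca was higher there, at 158.

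Cyp1b1 is a cytochrome P450 of the endoplasmic reticulum that oxidises steroids, retinoids, fatty acids and many foreign compounds, and in vertebrates it is best known for its part in eye development. The brain of an adult zebrafish keeps dividing radial glia, makes its own oestrogen through Cyp19a1b, and relies on mitochondrial respiration to power synaptic transmission. The transcript of cyp1b1 itself had a fold of 0.889 (95% interval 0.733 to 1.08, adjusted p = 0.818) in wh5 brain. In eye its fold was 1.46 (1.2 to 1.77), and it was called higher there. The test of the difference between organs, described below, did not pass for cyp1b1 (adjusted p = 0.169). Neither fold checks the genotype labels, since a mutant transcript can be stable and the files do not give the lesion.

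The overall picture was one of few and mostly small shifts. Of 19300 genes, 142 were called (0.736%), 71 higher (0.368%) and 71 lower (0.368%) in wh5. An unadjusted p below 0.05 was reached by 1664 genes (8.62%), 798 higher and 866 lower. The called genes had a median change of 1.58-fold. In 64 of them the change was under 1.5-fold, in 33 it lay from 1.5- to 2-fold, in 22 from 2- to 4-fold, and in 23 it was 4-fold or more. Among the last 23 genes, 17 fell and 6 rose, and 9 have only a clone name or an uncharacterised locus name. By the annotation used for names, 136 called genes code for protein and 2 are long noncoding RNAs.

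How small a change the comparison could resolve depended on how abundant a transcript was. For the 1417 genes with a base mean under 10, the 95% interval at the median SE reached 2.37-fold to either side, and the 4 calls there were all of at least 5.7-fold. For the 6461 genes with a base mean from 200 to 1000, it reached 1.15-fold, and the smallest called change was 1.14-fold. For 775 genes above 5000 the reach was 1.11-fold and 7 were called. Over all genes, 12365 (64.1%) had a 95% interval that lay wholly within 0.5 log2 units of no change, that is, between folds of 0.707 and 1.41. This share was 4.17% for base means from 10 to 50 and 95.2% above 5000, so an uncalled scarce gene was hardly measured, while an uncalled abundant gene was bounded closely. The median log2 fold change over all genes was -0.0014, and 50.5% of genes lay below 0.

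**Figure D1:**
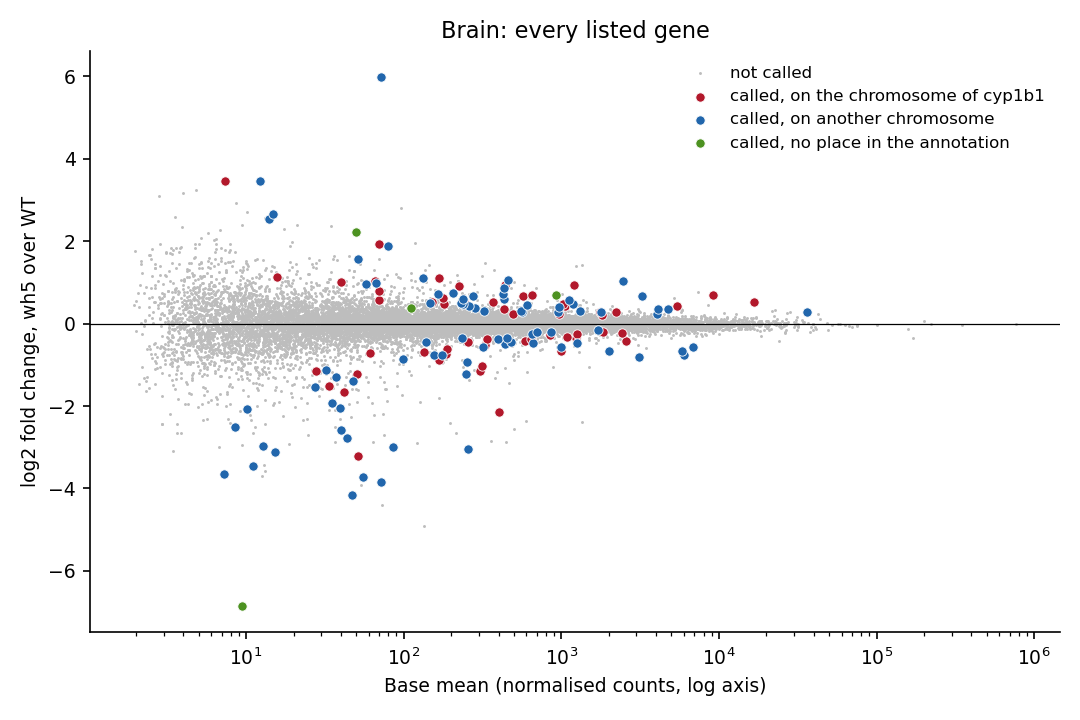
Each point is 1 of the 19300 genes, with its base mean in normalised counts on a log axis and its log2 fold change, wh5 over WT. Grey points were not called, and coloured points are the 142 called genes by place; the scatter narrows to the right, and most of the called changes of 4-fold or more sit below a base mean of 100.

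Position divided the called genes. The annotation placed 57 of them on the chromosome that carries cyp1b1 (30 higher and 27 lower, of 709 tested there), 81 on other chromosomes (38 higher and 43 lower, of 17845), and 4 could not be placed (3 higher and 1 lower, of 746). The effect of the cyp1b1 allele and that of other sequence inherited with it on its chromosome cannot be told apart in these samples, so both classes are described separately. The 81 genes on other chromosomes came from 20 chromosomes, none of which gave more than 10, but they were not spread evenly. Calls made up 1.35% of tested genes on chromosome 14 (9 of 665), 1.29% on chromosome 20 (10 of 774) and 1.18% on chromosome 6 (10 of 848). The share over these other chromosomes was 0.454%, and chromosomes 1, 15, 18 and 24 gave no call. The source of this unevenness was not tested.

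Several of the genes that rose on other chromosomes serve synapses, transport along axons or the cytoskeleton. The complexin gene cplx2, whose product clamps and triggers synaptic vesicle fusion, rose 1.22-fold (95% interval 1.09 to 1.36, adjusted p = 0.046). It had the highest base mean of all called genes, 36141 in the authors' deposited table. The dynamin gene dnm1a, which codes for a GTPase that pinches off endocytic vesicles, rose 2.06-fold (95% interval 1.44 to 2.96, adjusted p = 0.017). A gene annotated as synaptotagmin-2-like, LOC559637, rose 1.99-fold (95% interval 1.51 to 2.62, adjusted p = 0.00059). Motor and microtubule genes moved by less. The kinesin light chain gene klc4 rose 1.27-fold (1.13 to 1.44), the kinesin gene kif21a 1.18-fold (1.08 to 1.28), and dpysl2b, which codes for a collapsin response mediator that binds tubulin, 1.27-fold (1.14 to 1.42). The rises also took in ppp1r9a (neurabin, a scaffold of dendritic spines) at 1.22-fold (1.1 to 1.36), the actin regulator cap2 at 1.5-fold (1.25 to 1.81) and the ryanodine receptor gene ryr3, a calcium release channel, at 1.24-fold (1.13 to 1.36). The endosomal retromer gene vps26bl rose 1.32-fold (1.17 to 1.5). These genes were gathered by role after their values were seen, and most members of the same families were not called: of 68 genes of vesicle release 1 rose, of 92 of dynamins and endocytosis 1 rose, and of 56 kinesins and dyneins 2 rose, against 0.368% of all genes that rose. The vesicle release list, built from symbols, leaves out LOC559637. A single called gene in lists of this size is no result about the list. Under an empirical null, in which p-values are recomputed from the median and robust SD of all test statistics, cplx2, dnm1a, klc4, kif21a and ppp1r9a were no longer called (adjusted p from 0.0713 to 0.155), and cplx2 was also lost when the chromosome of cyp1b1 was left out (adjusted p = 0.0751).

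Other rises fell into smaller groups. The replication helicase gene mcm7 rose 2.09-fold (95% interval 1.5 to 2.91, adjusted p = 0.00429), and it was the only call among 92 genes of DNA replication and mitosis, whose median log2 fold change was -0.0034. Genes of RNA processing included tsen54, a subunit of the endonuclease that splices transfer RNA, at 1.41-fold (1.17 to 1.71), and ints7 of the Integrator complex at 1.23-fold (1.11 to 1.37). Genes of mitochondrial enzymes included suox (sulfite oxidase) at 1.31-fold (1.19 to 1.44) and noa1, a GTPase needed for mitochondrial translation, at 1.51-fold (1.25 to 1.83). Transport across membranes was represented by the glucose transporter gene slc2a8 at 1.38-fold (1.18 to 1.61), slc35e1, of the nucleotide sugar transporter family, at 1.39-fold (1.19 to 1.62), and the efflux pump gene abcc6a at 1.64-fold (1.25 to 2.15). At cell surfaces and in the matrix, fndc1 rose 2.17-fold (95% interval 1.43 to 3.28, adjusted p = 0.0411), the cadherin-related gene cdhr5b 1.95-fold (1.41 to 2.7), the metalloproteinase gene adam19b 1.5-fold (1.25 to 1.79), and itih1, whose product binds hyaluronan, 1.81-fold (1.39 to 2.37). The immune sensor gene tlr7, of the endosomal receptor for single-stranded RNA, was not placed and rose 1.61-fold (1.26 to 2.06). Tripartite motif genes ftr97 and trim105 rose 1.67-fold (1.28 to 2.17) and 1.63-fold (1.26 to 2.12). Reads of finTRIM copies may map to more than 1 gene, and the sources used here do not state how such reads were assigned.

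Signalling and gene regulation supplied most of the remaining named rises. The nuclear export cofactor gene ranbp3a rose 1.58-fold (1.28 to 1.97), fam102bb 1.58-fold (1.26 to 1.98), the zinc finger gene znf512 1.42-fold (1.18 to 1.71), the serum response factor coactivator gene mrtfba 1.36-fold (1.15 to 1.59) and the G protein gene gna12a 1.33-fold (1.14 to 1.56). wdr48b, a partner of deubiquitinating enzymes, rose 1.21-fold (1.09 to 1.34). The claudin gene cldn10a, which codes for a tight junction protein, rose 11.1-fold (95% interval 3.28 to 37.4, adjusted p = 0.0202). Its base mean was only 12.3 in the authors' deposited table, and its interval spans more than a factor of 10. Of the genes of these 2 paragraphs, tsen54, ints7, abcc6a, fndc1, cdhr5b, tlr7, ftr97, trim105, fam102bb, znf512, mrtfba, gna12a, wdr48b and cldn10a were not called under the empirical null (adjusted p from 0.0603 to 0.165). Leaving out the chromosome of cyp1b1 also ended the calls of tsen54, abcc6a, fndc1, trim105, mrtfba, gna12a and wdr48b.

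The genes that fell on other chromosomes, beyond photoreceptor and immediate early genes, were of varied function. The largest of these falls in a gene of known family was in kcnk5a, a potassium channel of the tandem-pore class. At a base mean of 47.2 in the authors' deposited table, it fell 17.8-fold (95% interval 5.89 to 53.8, adjusted p = 0.000219). It was the only call among 94 potassium channel genes, whose median log2 fold change was 0.042. The growth factor gene gdf3, a ligand of the TGF-beta superfamily, fell 1.92-fold (95% interval 1.42 to 2.6, adjusted p = 0.00714), and mst1, which codes for macrophage stimulating protein, fell 2.63-fold (95% interval 1.84 to 3.76, adjusted p = 9.31e-05). The base mean of mst1 was 47.4 in the authors' deposited table. krit1, loss of which causes cerebral cavernous malformations in humans, fell 1.47-fold (95% interval 1.29 to 1.69, adjusted p = 2.27e-05). cplane2, a ciliogenesis gene, fell 1.69-fold (95% interval 1.33 to 2.15, adjusted p = 0.00565) and tcima, annotated as a regulator of transcription and immune response, 1.58-fold (95% interval 1.32 to 1.9, adjusted p = 0.000579). The cytochrome P450 gene cyp2p10 fell 1.7-fold (1.32 to 2.19), the only call among 61 measured P450 genes.

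Several further falls were each under 1.5-fold. They included cse1l, the exporter of importin alpha, at 1.39-fold (1.21 to 1.59) and the nuclear pore gene nup155 at 1.28-fold (1.13 to 1.45), together with a gene annotated as nuclear cap-binding protein subunit 1-like, LOC110440214, at 1.36-fold (1.19 to 1.56). Genes of ubiquitin handling included the conjugating enzyme gene cdc34b at 1.38-fold (1.2 to 1.59) and the deubiquitinase gene usp42 at 1.16-fold (1.08 to 1.25). Genes of microtubules and the spindle were slain1b at 1.42-fold (1.17 to 1.72), the centrin-binding gene sfi1 at 1.3-fold (1.14 to 1.48) and the kinetochore gene ska2 at 1.14-fold (1.06 to 1.23). No member of the list of 92 genes of DNA replication and mitosis fell, but that list, built from symbols, leaves out sfi1 and ska2. The endosomal gene plekhf2 fell 1.27-fold (1.13 to 1.42), the RNA-binding gene atxn2l 1.2-fold (1.09 to 1.32), and sec63, which serves protein entry into the endoplasmic reticulum, 1.12-fold (1.05 to 1.18), the smallest called change in the table. Larger falls at low expression were those of lrrc74a at 7.79-fold (3.95 to 15.4), ms4a17a.9 at 4.21-fold (1.99 to 8.89), the sialyltransferase gene st3gal1 at 4.16-fold (1.91 to 9.05), aifm5 at 2.92-fold (1.84 to 4.61) and the transglutaminase gene tgm1l4 at 2.47-fold (1.53 to 3.98). Of the genes that fell in these 2 paragraphs, cyp2p10, nup155, usp42, slain1b, sfi1, ska2, plekhf2, atxn2l, sec63, ms4a17a.9, st3gal1 and tgm1l4 were not called under the empirical null (adjusted p from 0.0555 to 0.171), and slain1b, ska2, atxn2l, sec63, st3gal1 and tgm1l4 were also lost without the chromosome of cyp1b1.

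**Figure D2:**
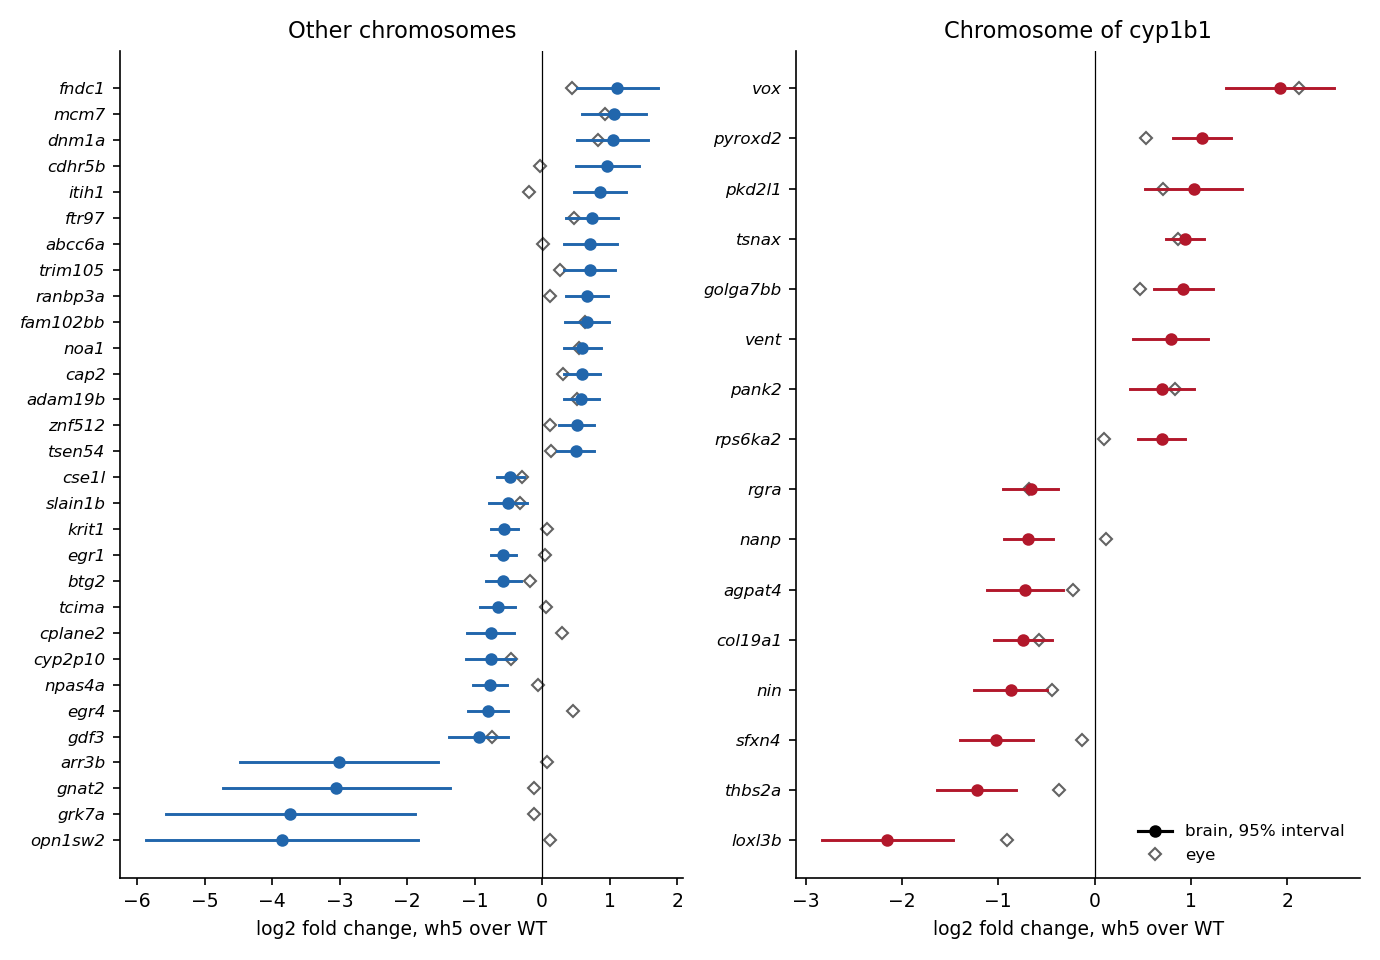
Log2 fold changes, wh5 over WT, of the called genes with the largest rises and falls among named genes whose base mean reached 50: 30 on other chromosomes (left) and 16 on the chromosome of cyp1b1 (right). Filled circles and bars are the brain value with its 95% interval, and open diamonds are the eye value. Brain intervals all exclude 0 because only called genes were drawn, and they are widest for the 4 cone genes at the bottom left.

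Some of the deepest falls were in genes that the eye expresses far more than the brain. Of 67 genes that fell and are also listed for eye, 10 had an eye base mean that was 10 or more times the brain base mean, and of 70 that rose, none did. The 10 were the cone genes opn1sw2, grk7a, guca1d, gnat2 and arr3b, the retinal clusterin-like gene clul1 at 6.82-fold (2.58 to 18), rnf41l at 5.7-fold (2.64 to 12.3), si:cabz01076231.1 at 11-fold (3.4 to 35.7), and the linked genes nin and thbs2a. Such a ratio was found in 1096 of the 18275 genes listed in both organs. Of these 1096 genes 0.912% were called, against 0.739% of the 17179 others. Over all 1096, 56.8% lay below 0 and the median log2 fold change was -0.070 at a median SE of 0.44. All 11 rod and cone markers were listed in brain, with base means from 13.1 to 1359 in the authors' deposited table, and all 11 were below 0 with 3 called. Their part in the falls of rnf41l, clul1 and si:cabz01076231.1 was not tested. Of 58 genes of photoreceptor phototransduction 5 fell and none rose, and 54 were below 0. That list leaves out the linked photoreceptor gene eys, described below, which rose. Of 53 immediate early genes 4 fell (egr4, npas4a, egr1 and btg2), none rose, and 36 were below 0, with a median log2 fold change of -0.065. For comparison with both lists, 0.368% of all genes fell and 50.5% lay below 0. None of the 5 phototransduction calls held under the empirical null (adjusted p from 0.064 to 0.171), nor did those of clul1 and si:cabz01076231.1 (0.0664 to 0.087).

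On the chromosome of cyp1b1, calls made up 57 of 709 tested genes. Among the falls were several matrix genes: loxl3b, whose product crosslinks collagen, fell 4.45-fold (95% interval 2.78 to 7.11, adjusted p = 1.36e-06), the thrombospondin gene thbs2a 2.34-fold (95% interval 1.76 to 3.11, adjusted p = 7.94e-06), and the collagen gene col19a1 1.67-fold (95% interval 1.35 to 2.06, adjusted p = 0.000798). Among 51 collagens col19a1 was the only call, and loxl3b and thbs2a were the only calls among 71 other matrix genes, whose median log2 fold change was 0.082. Built from symbols, these lists leave out fndc1, itih1, crtac1b and cpxm1a, which rose. Genes of metabolism also fell. slc3a1, a subunit of the transporter of cystine and basic amino acids, fell 3.18-fold (95% interval 2.08 to 4.87, adjusted p = 9.31e-05), the steroid 5-alpha-reductase gene srd5a2b 2.87-fold (1.93 to 4.25), and nanp, which codes for a phosphatase of sialic acid synthesis, 1.61-fold (1.35 to 1.92). The pentose phosphate gene rpia fell 1.35-fold (1.18 to 1.54) and glo1, which detoxifies methylglyoxal, 1.19-fold (1.1 to 1.3). Genes of mitochondrial proteins included sfxn4 at 2.03-fold (1.56 to 2.64), the cytochrome oxidase assembly gene cox16 at 1.43-fold (1.25 to 1.64), chchd1, a protein of the mitochondrial ribosome, at 1.34-fold (1.15 to 1.57), and cisd1, an iron-sulfur protein of the outer membrane, at 1.15-fold (1.08 to 1.23). mfsd2aa, which carries docosahexaenoic acid across the blood-brain barrier, fell 1.21-fold (1.1 to 1.33), and the lysosomal protease gene lgmn 1.16-fold (1.09 to 1.24). Centrosome genes were represented by nin at 1.83-fold (1.41 to 2.37) and alms1 at 1.29-fold (1.14 to 1.47). The remaining named falls included the photoisomerase gene rgra at 1.58-fold (1.3 to 1.93), the acyltransferase gene agpat4 at 1.65-fold (1.26 to 2.17), prepl at 1.54-fold (1.25 to 1.9), wdr27 at 2.24-fold (1.57 to 3.19) and the RNA polymerase III factor gene brf1a at 1.36-fold (1.2 to 1.54). Base means of slc3a1, srd5a2b and wdr27 were only 42.1, 33.6 and 27.7 in the authors' deposited table.

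The linked rises began with a pair of neighbouring homeobox genes. vox, a repressor that specifies ventral fate in the embryo, rose 3.79-fold (95% interval 2.57 to 5.61, adjusted p = 7.3e-08), and vent, which acts with it, rose 1.73-fold (95% interval 1.32 to 2.26, adjusted p = 0.0141). They lie next to each other among tested genes, and there were 7 such adjacent pairs of called genes on the chromosome, 6 of which moved in the same direction. Gene order is that of the annotation used here, and whether 7 pairs exceed what random order would give was not tested. vox and vent were also the only calls among 117 regional transcription factors, whose median log2 fold change was -0.051. The smallest p-value in the whole table belonged to tsnax, the partner of the RNA-binding protein translin, which rose 1.92-fold (95% interval 1.67 to 2.2, adjusted p = 2.84e-16). pyroxd2, an oxidoreductase gene, rose 2.17-fold (1.76 to 2.67), pank2, whose enzyme starts coenzyme A synthesis, 1.63-fold (1.29 to 2.04), and golga7bb, of a family that serves protein palmitoylation, 1.89-fold (1.53 to 2.34). pkd2l1, a channel gene of neurons that contact the cerebrospinal fluid, rose 2.04-fold (1.44 to 2.9). Signalling genes included the S6 kinase gene rps6ka2 at 1.62-fold (1.37 to 1.92), the BMP receptor gene bmpr1aa at 1.28-fold (1.13 to 1.45), the Notch ligand gene jag2a at 1.39-fold (1.16 to 1.67) and hcar1-3, of the hydroxycarboxylic acid receptors, at 2.19-fold (1.48 to 3.24). fancl, a ubiquitin ligase gene of the Fanconi anaemia pathway, rose 2.01-fold (1.41 to 2.88). Base means of hcar1-3 and fancl were only 15.7 and 39.7 in the authors' deposited table. The matrix-related genes crtac1b and cpxm1a rose 1.59-fold (1.31 to 1.93) and 1.53-fold (1.26 to 1.86). The largest linked rise was in eys, known for its part in photoreceptor outer segments, at 11-fold (5.05 to 23.8), from a base mean of only 7.33 in the authors' deposited table. Smaller rises included metap1 at 1.34-fold (1.2 to 1.5), rufy2 at 1.34-fold (1.21 to 1.49), the lysosomal trafficking gene lyst at 1.39-fold (1.21 to 1.61), the ribonuclease gene rnaset2 at 1.45-fold (1.26 to 1.66) and the Hsp70 cochaperone gene bag5 at 1.18-fold (1.08 to 1.29). Under the empirical null 37 of the 57 linked genes were still called, and vent, pkd2l1, bmpr1aa, jag2a, hcar1-3, fancl, bag5, agpat4, prepl, chchd1, alms1 and mfsd2aa were among those lost (adjusted p from 0.0533 to 0.163).

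Among gene families, those that build ribosomes and the respiratory chain lay slightly below 0, and the lists, built from symbols, held no called member. They leave out chchd1 and cox16, described above, whose symbols follow other patterns. Of 84 cytosolic ribosomal protein genes, 79 were below 0, with a median log2 fold change of -0.12, and of 75 mitochondrial ribosomal protein genes 69 were, with a median of -0.12. Of 97 nuclear genes of oxidative phosphorylation 87 were below 0, with a median of -0.11. Over all genes 50.5% were below 0, and among genes with a base mean above 5000 58.8% were. The offset amounts to folds of 0.922, 0.919 and 0.926, and the most expressed members had folds on both sides of it: rplp0 of the ribosomal stalk had a fold of 0.959 (0.872 to 1.05), rps2 0.983 (0.85 to 1.14), the ATP synthase genes atp5f1b 0.903 (0.817 to 0.998) and atp5fa1 0.919 (0.821 to 1.03). The member nearest to a call was mrpl47 of the mitochondrial large subunit, with a fold of 0.766 (95% interval 0.661 to 0.888, adjusted p = 0.0515). An unadjusted p below 0.05 was reached by 5, 12 and 6 members, that is 5.95%, 16% and 6.19%, against 8.62% of all genes. Their intervals exclude large change: 81 of 84, 71 of 75 and 83 of 97 lay wholly within 0.5 log2 units of 0. Members of such families vary together between samples, so the counts are not independent observations. In eye the medians of the same lists, in the same order, were 0.23, 0.080 and 0.16. The difference between organs was not tested for lists.

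The 12 protein-coding genes of the mitochondrial genome that were measured under a matching symbol had a smaller offset, with a median of -0.028, 7 of 12 below 0 and all 12 intervals within 0.5 log2 units of 0, and the difference between the families was not tested. The cytochrome oxidase gene mt-co1 had a fold of 1.00 (0.905 to 1.11) and mt-co2 of 0.977 (0.846 to 1.13). Translation factors had a median of -0.053 with 65 of 86 below 0, proteasome genes -0.047 with 38 of 53, and heat shock and chaperone genes -0.053 with 73 of 105. The chaperone list had 1 call, the rise of bag5, which lies on the chromosome of cyp1b1. RNA splicing genes had a median of -0.029 over 199 members, with 183 intervals within 0.5 log2 units of 0. Citric acid cycle genes (-0.026, 39 members), glycolysis and pentose phosphate genes (-0.010, 78), and fatty acid oxidation genes (-0.020, 71) had medians nearer to 0. Among the glycolysis list slc2a8 rose and the linked gene rpia fell.

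**Figure D3:**
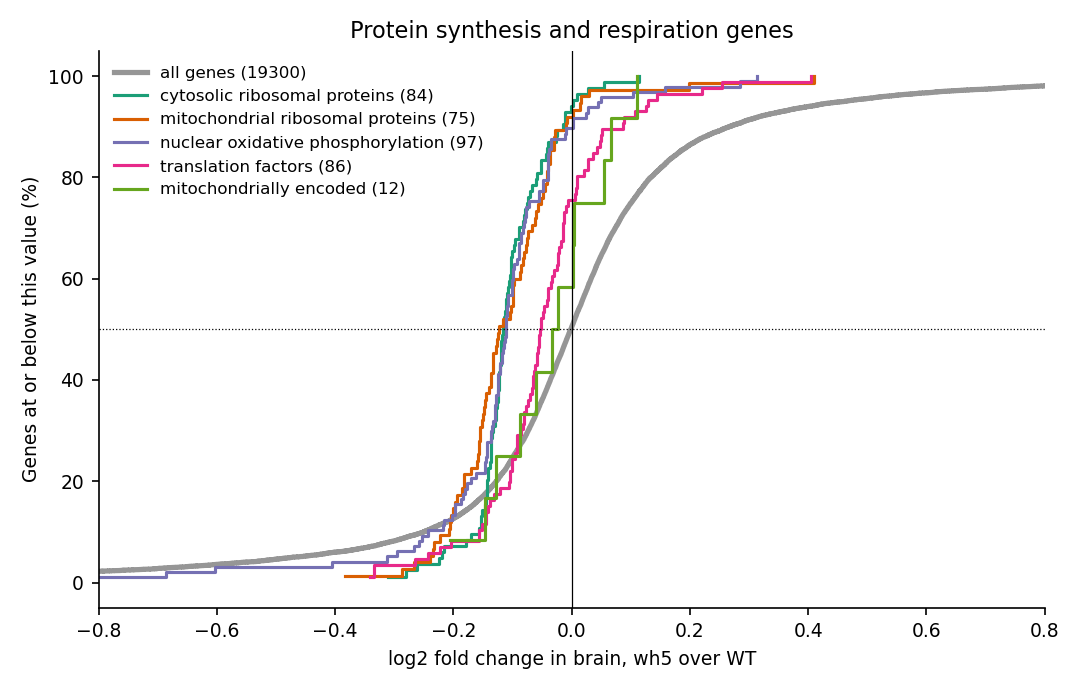
Cumulative share of genes (in percent) at or below each log2 fold change in brain, wh5 over WT, for 5 families and for all 19300 genes in grey. The curves of the cytosolic and mitochondrial ribosomal proteins and of oxidative phosphorylation cross 50% near -0.12 to -0.11, left of the grey curve, while that of the mitochondrially encoded genes crosses at -0.028.

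The lists of transmitter receptors, transporters and enzymes held no called gene, and how closely their members were bounded differed between lists. None of 40 glutamate receptor genes was called, their log2 fold changes ran from -0.26 to 0.21, and 38 intervals lay within 0.5 log2 units of 0, which 64.1% of all genes did. The NMDA receptor gene grin1a had a fold of 1.08 (0.969 to 1.2) and the AMPA receptor gene gria2b of 1.04 (0.884 to 1.22). Of 44 postsynaptic scaffold genes none was called and 42 were so bounded, with camk2a at 1.08 (0.867 to 1.35) and camk2g2 closest to a call at 1.13 (95% interval 1.05 to 1.22, adjusted p = 0.0893). Of 40 genes of GABA and glycine transmission, 28 were above 0 with a median of 0.046 and 32 were so bounded, and the glutamate decarboxylase genes gad2 and gad1b had folds of 1.05 (0.93 to 1.18) and 1.01 (0.921 to 1.12). The list of dopamine, noradrenaline and serotonin genes (57 members, median 0.046) held no call, and only 30 were so bounded. Acetylcholine genes had a median of 0.14 over 25 members with 16 above 0, only 9 were so bounded, and chata, the gene of the enzyme that makes acetylcholine, had a fold of 1.39 (95% interval 1.12 to 1.73, adjusted p = 0.181). Voltage-gated calcium channels (35 members, median 0.044) and sodium channels (14, 0.10) also held no call, with cacna1aa at 1.03 (0.914 to 1.15) and scn8aa at 1.03 (0.943 to 1.12). Members with large uncalled falls in these lists were again genes of the eye: gabra6a had a fold of 0.249 (0.0834 to 0.745) and the glutamate transporter genes slc1a8b and slc1a2a 0.0933 (0.0163 to 0.535) and 0.126 (0.0313 to 0.506), and the base mean of each in the authors' deposited tables was at least 10 times higher in eye.

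Markers of neurons and glia did not separate the genotypes. All 8 neuronal markers had log2 fold changes between -0.03 and 0.05, with folds of 0.992 (0.914 to 1.08) for elavl3 and 0.982 (0.906 to 1.06) for snap25a. Of 36 genes of radial glia and astroglia none was called (median -0.055). gfap, the intermediate filament gene of these cells, had a fold of 1.12 (0.907 to 1.38), cyp19a1b, the brain aromatase, 1.2 (0.93 to 1.56), and glula, glutamine synthetase, 1.00 (0.913 to 1.1). Of 42 genes of progenitors and new neurons 2 rose, dpysl2b and the linked jag2a, and none fell, with a median of -0.054. They are 4.76% of the list, against 0.368% of all genes that rose. The call of jag2a was lost under the empirical null (adjusted p = 0.163). None of 32 genes of myelin and oligodendrocytes was called, although the myelin basic protein gene mbpa had a fold of 0.789 (95% interval 0.631 to 0.987, adjusted p = 0.533) and the proteolipid gene plp1b of 0.741 (95% interval 0.587 to 0.935, adjusted p = 0.344), intervals that exclude 1 before adjustment. In whole-organ RNA, fewer cells of a type and less RNA per cell cannot be told apart. Motile cilia and ependymal genes had a median of -0.11 with 47 of 66 below 0, none called, and foxj1a, the regulator of motile cilia, had a fold of 0.837 (0.606 to 1.16).

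Immune and vascular lists had medians from -0.012 to 0.15 in brain, and most members of the immune lists were not bounded closely. Among 51 genes of microglia and macrophages none was called, the median was -0.0056 and 22 intervals lay within 0.5 log2 units of 0, with mpeg1.1 at 0.848 (0.679 to 1.06) and p2ry12, a microglial purine receptor, at 0.984 (0.686 to 1.41). None of 72 interferon response and antigen presentation genes was called (median 0.013), but only 29 were so bounded, and isg15 had a fold of 0.491 (0.178 to 1.35). Of 108 chemokines, interleukins and receptors none was called (median 0.082) and 26 were so bounded, with tnfrsf1a closest at 1.36 (95% interval 1.13 to 1.63, adjusted p = 0.111). None of 40 genes of lymphocytes and granulocytes was called (median 0.15), with 5 so bounded. Of 54 finTRIM and bloodthirsty TRIM genes 1 rose, ftr97 (1.85%, against 0.368% of all genes that rose). None of them fell, the median was 0.042 and 4 were so bounded. Built from symbols, the immune lists leave out tlr7, which rose. In the list of 42 complement and coagulation genes none was called and 9 were so bounded, and c6 of the membrane attack complex had a fold of 0.65 (95% interval 0.508 to 0.831, adjusted p = 0.0656). Of 47 genes of endothelium and the blood-brain barrier mfsd2aa fell and none rose, and 34 were so bounded. The 6 measured endothelial markers had folds from 0.892 to 1.77, none called, with kdrl at 1.02 (0.915 to 1.14) and pecam1 at 1.34 (1.04 to 1.72). Haemoglobin genes, which mark blood left in the tissue, were imprecisely measured and lay on both sides of 1, with hbba1 at 1.21 (0.686 to 2.12) and hbaa1 at 1.1 (0.598 to 2.01) but hbba2 at 0.698 (0.461 to 1.06) and hbaa2 at 0.624 (0.335 to 1.16).

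Hormone, clock and patterning genes gave no call except those named above. Of 70 neuropeptide precursor genes none was called (median 0.016), with trh, the precursor of thyrotropin-releasing hormone, at 1.22 (95% interval 1.08 to 1.39, adjusted p = 0.131). Of 21 pituitary genes none was called, and gh1, at its low base mean, had a fold of 9.49 (1.13 to 79.5). Among 32 genes of steroid synthesis and conversion srd5a2b fell and none rose, and 35 genes of steroid receptors and glucocorticoid targets had a median of 0.11 with 26 above 0 and no call. The 48 circadian clock genes had a median of 0.005, 41 of them were bounded within 0.5 log2 units of 0, and per3 had a fold of 1.16 (95% interval 1.05 to 1.29, adjusted p = 0.213). Of 62 retinoid genes rgra fell and none rose. Cyp1 and Ahr genes (12 measured) had no call, with the receptor gene ahr2 at 1.11 (1.01 to 1.22) and cyp1a at 1.82 (0.795 to 4.19). Hox genes, which pattern the hindbrain and spinal cord, had a median of 0.36 with 19 of 24 above 0, but no call, no interval within 0.5 log2 units of 0 and SEs with a median of 0.73 log2 units. hoxb3a had a fold of 1.14 (0.787 to 1.66) and hoxb5a of 1.3 (0.378 to 4.47). Keratin and surface epithelium genes had a median of 0.32 with 31 of 42 above 0 and no call, and krt8 had a fold of 1.11 (0.94 to 1.31). How much spinal cord or covering tissue was taken with each brain is not stated in the sources, and its part in these medians was not tested.

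Lists of guidance, adhesion and growth factor genes held few or no calls. With 0.736% of all genes called, an empty list of this size is no result about the list. Of 93 axon guidance genes 64 were above 0 (median 0.065), none was called, and 80 were bounded within 0.5 log2 units of 0. Of 79 cadherins and protocadherins none was called (median -0.0058). In the TGF-beta and BMP list of 72 genes, the linked receptor gene bmpr1aa rose and the ligand gene gdf3 fell, with a median of -0.028. Calls made up 2.78% of that list. No call was made among 66 Wnt genes (-0.042), 64 FGF and neurotrophin genes (-0.0064) or 46 insulin and IGF genes (0.069), and 1, rps6ka2, among 92 MAPK and S6 kinase genes. Of 266 solute carriers outside the other lists slc35e1 rose and slc3a1 fell. Of 358 genes of ubiquitin ligases and deubiquitinases, trim105 rose and rnf41l and usp42 fell. The 137 chromatin genes (median -0.0011, none called) and 195 zinc finger genes (median -8.9e-05, 1 called) centred on 0. In all, 83 lists covered 5351 genes and 42 of the 142 called genes. Calls fell in 26 lists, 57 lists held none, and 100 called genes belonged to no list.

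**Figure D4:**
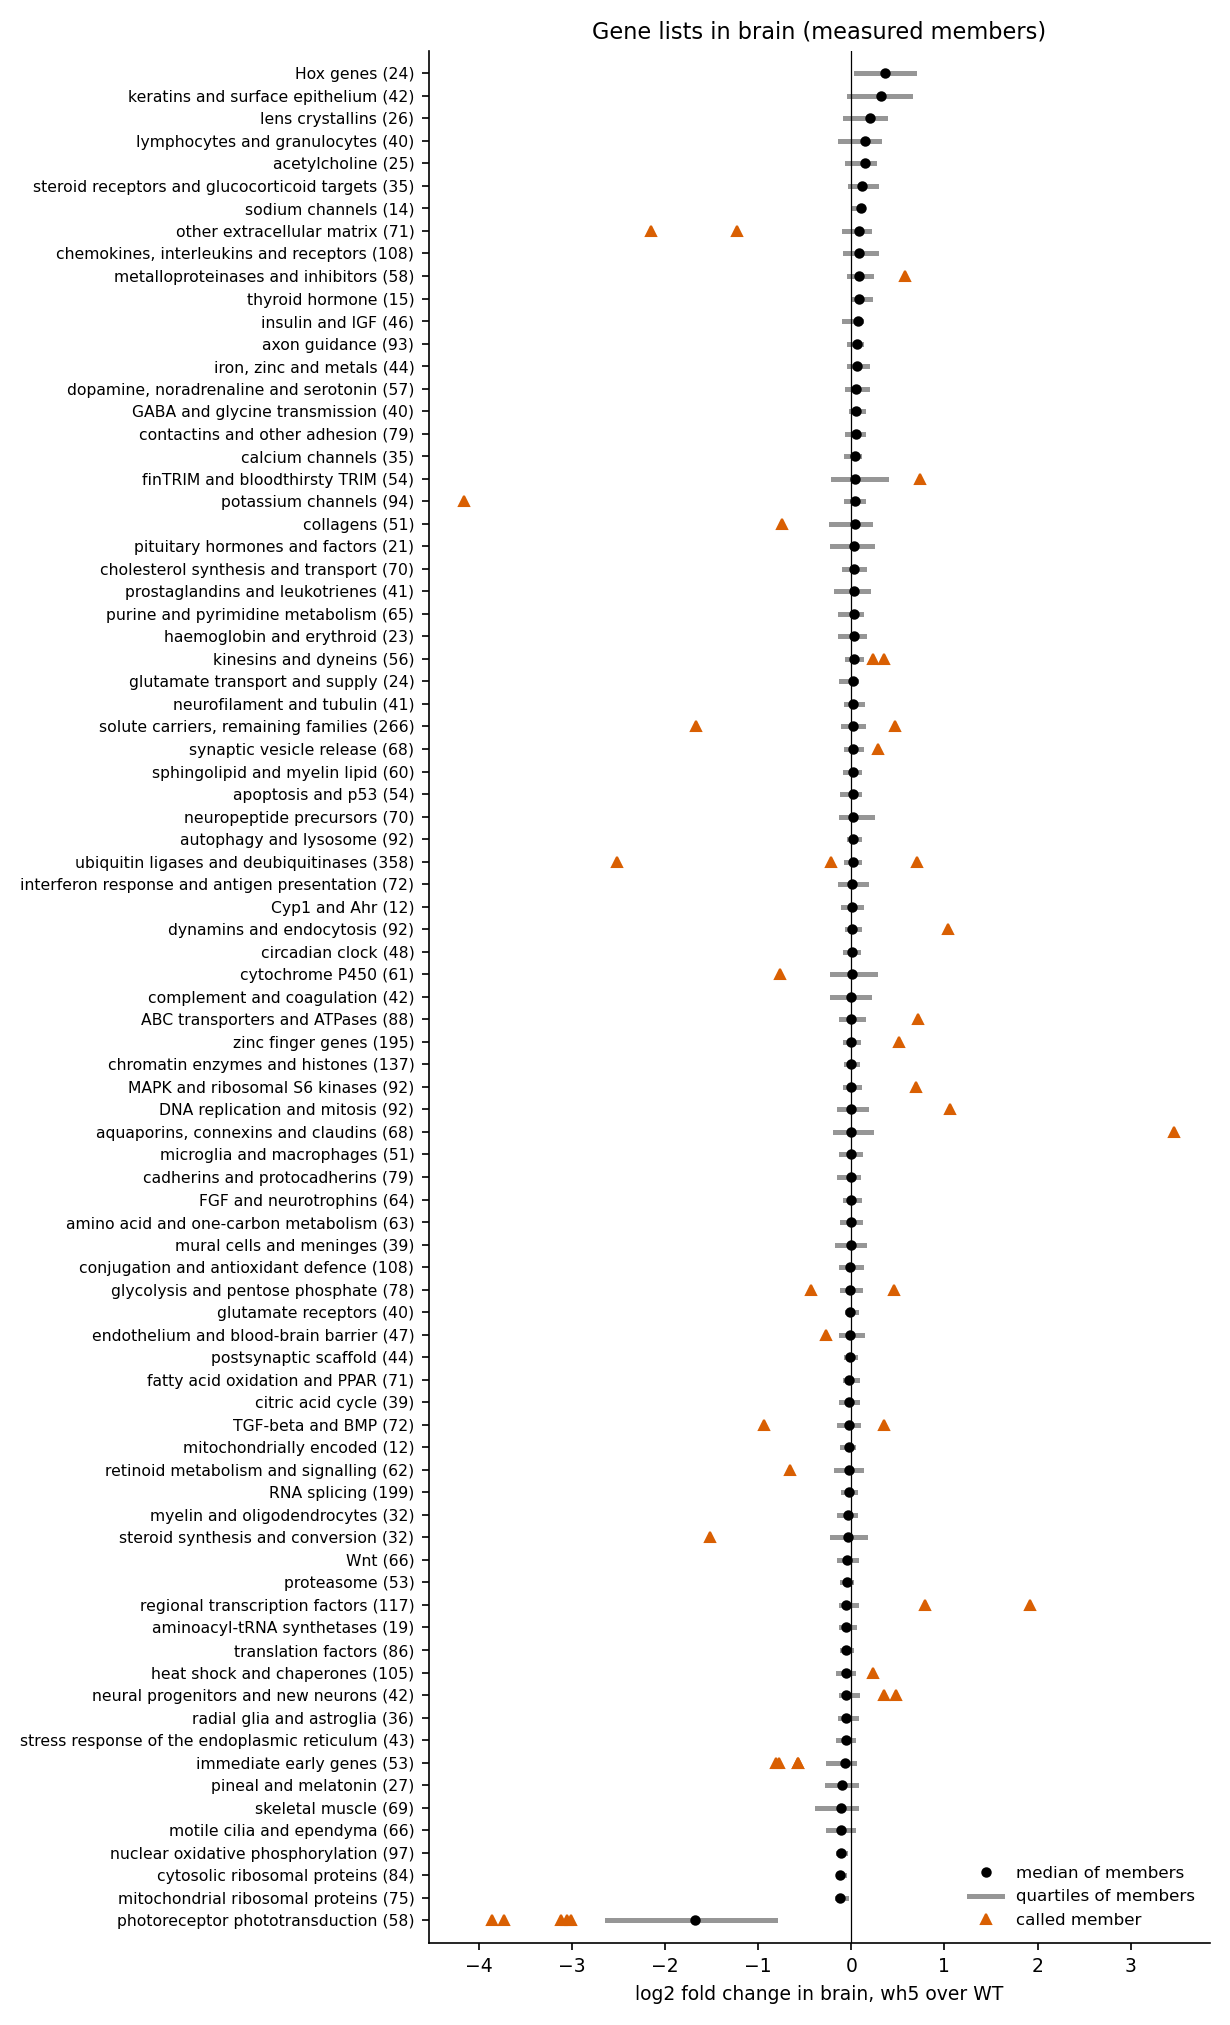
Log2 fold changes in brain, wh5 over WT, for 83 gene lists in order of their median, with the number of measured members in brackets. Black circles are medians, grey bars span the quartiles of the members and orange triangles are called members; apart from the photoreceptor list at the bottom (median -1.67), medians run from -0.12 to 0.36.

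Genes known only by clone or locus names made up 25 of the 142 calls (17.6%), about their share of all tested genes (18.1%). Several had the largest folds of the table. LOC103912066, uncharacterised and not placed, fell 116-fold (95% interval 38.4 to 348, adjusted p = 2.85e-13). The authors' deposited table gives it a base mean of 9.39, and it is not listed for eye. si:ch211-173a9.6 rose 63.1-fold (95% interval 6.57 to 605, adjusted p = 0.0473), a call lost under the empirical null (adjusted p = 0.159) and without the chromosome of cyp1b1 (0.0772). LOC100536937 rose 4.65-fold (95% interval 2.31 to 9.35, adjusted p = 0.00493) and had a fold of 8.38 (4.11 to 17.1) in eye, where it was also called. si:ch73-106g13.1 fell 5.98-fold (3.04 to 11.7), was called lower in eye as well, and lies on another chromosome than cyp1b1, while the linked si:dkeyp-2e4.3 fell 9.27-fold (4.96 to 17.3) in brain and was called lower in eye too. At high expression the linked si:ch211-194c3.5 rose 1.43-fold (1.26 to 1.62) and zgc:122979 on another chromosome fell 1.59-fold (1.31 to 1.94). Which samples carry the counts of such scarce transcripts is not shown by the tables.

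Set beside the eye of the same lines, 25 of the brain calls were also called in eye, all 25 in the same direction. They are 17.6% of the 142 brain calls and 7.69% of the 325 eye calls. In brain 0.736% of all 19300 genes were called, and the 325 eye calls came from 19429 genes. Agreement in direction was less complete over all brain calls listed for eye. It held for 46 of 56 linked genes, 55 of 78 on other chromosomes and 3 of 3 not placed. The share with equal direction over all 18275 genes listed in both organs is not given here. Whether these counts exceed it was not tested. Of the 25, 18 lie on the chromosome of cyp1b1, 6 on other chromosomes and 1 was not placed. The 6 were mcm7, dnm1a, noa1, ftr97, sec63 and si:ch73-106g13.1. The fold of mcm7 was 1.91 (1.49 to 2.44) in eye and that of dnm1a 1.78 (1.36 to 2.32). The labels do not say whether a fish gave both organs.

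The difference between organs was tested for the 18275 genes listed in both, by dividing the brain minus eye log2 fold change by its SE, which combines both tables' SEs as independent errors, and reading a normal p (both tails, Benjamini-Hochberg adjusted). It passed for 15 genes (0.0821%), 10 of them called in brain. krit1 was lower in wh5 brain while its eye fold was 1.05 (0.916 to 1.2), a log2 difference of -0.63 (95% interval -0.91 to -0.35, adjusted p = 0.0232). cplane2 had an eye fold of 1.22 (0.985 to 1.52) and a difference of -1.05 (95% interval -1.52 to -0.58, adjusted p = 0.0237). mst1 had an eye fold of 1.26 (0.932 to 1.7) and a difference of -1.73 (95% interval -2.40 to -1.05, adjusted p = 0.00432). These 3 lie on other chromosomes and fell in brain, with eye folds near or above 1. The linked nanp and wdr27 also fell in brain with eye folds of 1.09 (0.9 to 1.31) and 1.29 (0.995 to 1.68), and the linked cpxm1a rose in brain with an eye fold of 0.878 (0.748 to 1.03). Under an empirical null for the differences 1 gene passed, egr4, and with an error correlation of 0.3 between organs 111 passed.

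**Figure D5:**
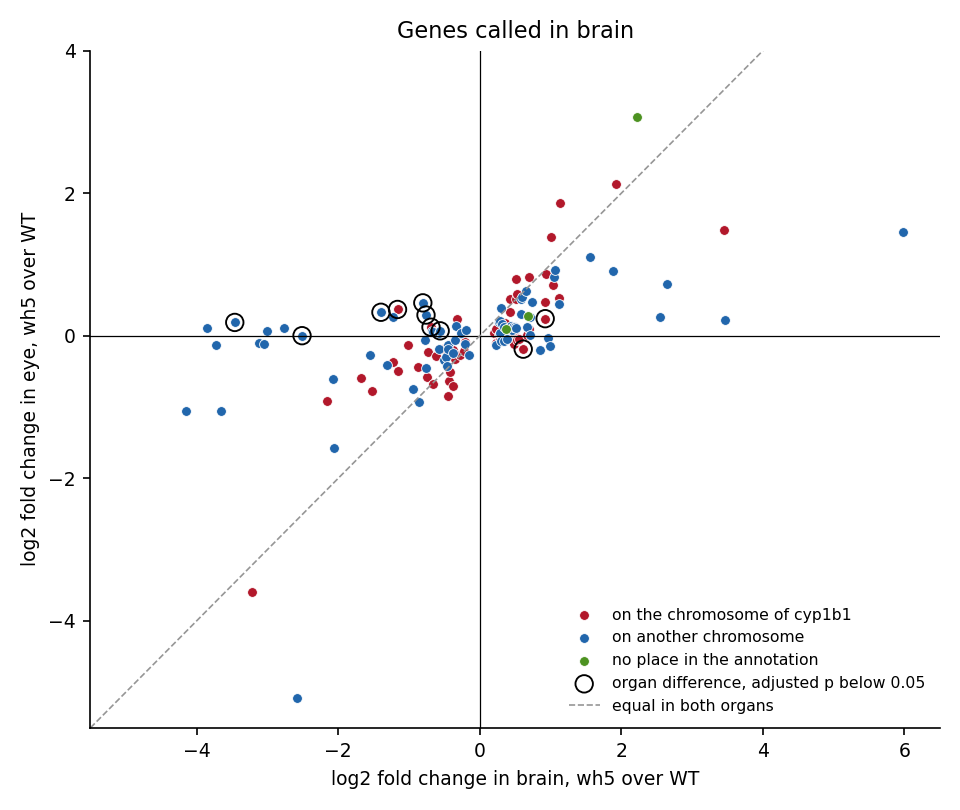
Log2 fold changes, wh5 over WT, in brain (horizontal) and eye (vertical) for the 137 genes called in brain that are listed for both organs, coloured by place. Black rings mark the 10 genes whose organ difference passed; the 25 genes called in both organs lie to the lower left and upper right of the axes' crossing, and most ringed genes lie left of 0 in brain and at or above 0 in eye.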

How the data were processed

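RNA from 40 zebrafish samples was sequenced, 20 of brain and 20 of eye per the sample titles. Build GRCz11 and the tools STAR, fastp and DESeq2 (version 1.32.0) are listed in the submitters' processing notes, without their roles. The sources used here do not state the model formula, the filters or any sex term. Each gene's row, per the file headers, holds the log2 fold change and SE of the authors' fit. The headers say only logarithm, and base 2 is assumed, as the authors' tool gives it. The authors' base mean is a signal averaged from normalised counts. Their deposited statistic, a score, is the log2 fold change divided by the SE. Raw and adjusted p-values were deposited with it. No table holds values of single samples, so depth per library is unknown, no count model was fitted, and precision is that of the authors' SE.

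Folds and 95% intervals were computed from the deposited log2 fold changes and SEs. Benjamini-Hochberg values were recomputed from the deposited p-values and gave the same 142 calls. The test of the difference between organs takes the errors of both tables as independent. It was tested on simulated data with independent normal errors, which cannot check that assumption. Chromosomes are those of RefSeq's gene table for assembly GRCz12tu, which is not the authors' build, so no coordinate is given. Gene lists were built from symbols, and members share regulation, so lists are described by counts and medians with no test.

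The lists, the rule for named genes and the comparisons were chosen with earlier results of these data known. The rule names any called gene, with full values for cyp1b1, the 15 largest rises and falls on other chromosomes and the 8 on the chromosome of cyp1b1 (base mean of at least 50, no clone name), the 10 called genes of highest base mean, called members of each list or else its 2 most expressed members and that of smallest p, markers of cell types, and genes of the largest organ differences. The genes isg15, gh1, cyp1a, gabra6a and slc1a8b, at an end of their lists' range, were named after their values were seen. Alternatives were other thresholds, minimum fold changes and base means, an empirical null, the Benjamini-Yekutieli adjustment and leaving out the chromosome of cyp1b1. Figures were drawn with matplotlib 3.10.9. Values were computed in numpy 2.4.6, pandas 2.3.3 and scipy 1.17.1 under Python 3.11.15.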

Additional observations from a re-analysis of the deposited data

Results flagged for a closer look

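Of the genes called in brain, 10 had an effect of genotype that differed between brain and eye by the test of the difference (Benjamini-Hochberg adjusted p below 0.05 over 18275 genes). The values are log2 fold changes in brain minus those in eye.

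Lower in brain relative to eye were the immediate early gene egr4 at -1.27 (adjusted p = 0.00121), mst1 at -1.73 (0.00432), krit1 at -0.63 (0.0232) and cplane2 at -1.05 (0.0237). The linked genes wdr27 and nanp differed by -1.53 (0.0113) and -0.81 (0.0299). rnf41l differed by -2.51 (0.0237) and si:cabz01076231.1 by -3.65 (0.0404), and their base means in the authors' deposited tables were 8.51 and 11.1 in brain against 666 and 3130 in eye. Higher in brain relative to eye were the linked genes cpxm1a at 0.80 (0.028) and si:dkey-191g9.7 at 0.68 (0.0299). Under an empirical null for the differences egr4 kept its place (adjusted p = 0.0387) and the other 9 did not (0.0896 to 0.328). Effects within a sex, and outlying samples, could not be examined in tables without single samples.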

How the results depend on the processing

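The count of 142 called genes (71 higher, 71 lower) became 205 at an adjusted p below 0.1, 149, 121 and 101 with minimum base means of 10, 50 and 100, and 130 without genes whose eye base mean was 10 or more times that in brain, an alternative chosen after seeing the data. It became 75 at an adjusted p below 0.01 (31 higher, 44 lower), 90 and 45 when changes had to reach 0.5 and 1 log2 units, 65 without the chromosome of cyp1b1 (29 higher, 36 lower), 77 under an empirical null (33 higher, 44 lower) and 61 under the Benjamini-Yekutieli adjustment (22 higher, 39 lower). The 77 and 61 genes were all among the 142, and leaving out the chromosome kept 65 of the other 85 calls. The 15 organ differences became 111 with an error correlation of 0.3, 9 where base means reached 50 in both tables, 7 without the chromosome of cyp1b1 and 1 under an empirical null. Medians of the 83 lists moved by at most 0.531 log2 units at a minimum base mean of 50 and by at most 0.063 without that chromosome. Both largest shifts were in the list of photoreceptor phototransduction. Each shift was within the median SE of the list's members, which is not the error of a list median. No paired analysis was possible because the tables hold no values of single samples, and for that reason leaving out replicates was not run. Depth is unknown, and below a base mean of 50 few genes were bounded within 0.5 log2 units of 0.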
